A study of Homo sapiens with 6 samples.

Results

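Genes best known from blood vessel endothelium were examined in definitive endoderm, the embryonic layer that gives rise to gut, liver and lung. The members were the 10 rows VWF, RNASE1, KDR, FLT1, TEK, TIE1, PECAM1, CDH5, ROBO4 and ERG of a table of 58830 genes, taken by symbol. They were chosen by their TPM in these libraries and by their differences between the groups, so those values are description. Only 4 of them, VWF, RNASE1, KDR and FLT1, were expressed above 1 TPM (reads scaled for gene length and library total). VWF and RNASE1 were lower and KDR and FLT1 higher after knockdown of GATA6-AS1. The other 6, among them CDH5, TIE1 and PECAM1, which define endothelial cells, rested on 0 to 16 estimated reads per library.

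Total RNA of HuES8 cells, a line of human embryonic stem cells, was sequenced. Endoderm with GATA6-AS1, a long noncoding RNA encoded beside GATA6, knocked down (KD, 3 libraries) was compared with wild-type endoderm (DE, 3 libraries). All cells had been differentiated for 3 days with 100 ng/mL Activin A, together with 2.5 µM CHIR, which activates Wnt signalling, on day 1 only. How the RNA was knocked down, and whether DE cells carried a control construct, was not stated in the labels, and all libraries came from 1 cell line. GATA6-AS1 itself stood at 180, 163 and 126 TPM in KD libraries, against 389, 421 and 313 TPM in DE libraries (log2 change -1.26, limma adjusted p = 0.0128, without DE replicate 1 or KD replicate 2 at most 0.0717). TPM hold no read totals, and the steps between low values gave an estimated 18633706 to 24509809 reads per library. That estimate covers only the 37138 genes with a known exon length. Transcripts of mitochondrial DNA took 28.3%, 28.8% and 36.2% of TPM in KD libraries, against 28.5%, 24.6% and 38.0% in DE libraries, replicate 3 being the highest of each group. Whether the replicates were separate cultures is not labelled. The p-values therefore measure the spread between these libraries alone, and that spread may be technical.

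In vessels, endothelial cells sense VEGF through the receptor tyrosine kinases KDR and FLT1 and angiopoietins through TEK, with TIE1 as a partner of TEK. CDH5 (VE-cadherin) and PECAM1 join the cells to each other, ROBO4 is a guidance receptor that stabilises vessels, and ERG is an ETS-family transcription factor that keeps the endothelial programme on. VWF, the von Willebrand factor, carries factor VIII and tethers platelets, and RNASE1 is a secreted ribonuclease released by endothelium and pancreas. KDR is also present in human pluripotent stem cells and in early mesoderm, before any vessel forms.

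The start regions of the expressed receptors and of RNASE1, shown here, differ in base composition. The receptors were higher and RNASE1 lower in KD, and a link between composition and direction was not tested. RefSeq start windows on GRCh38.p14, from 250 bases before to 50 after a start, were found for 7 of the 10 members, not for VWF, PECAM1 or CDH5. Capitals mark CpG pairs. The windows lie at chr4:55125546-55125845 (KDR), chr13:28495079-28495378 (FLT1) and chr14:20802795-20803094 and chr14:20802315-20802614 (RNASE1, starts at the upper and the lower coordinate), all on the minus strand and written in the direction of transcription.
KDR: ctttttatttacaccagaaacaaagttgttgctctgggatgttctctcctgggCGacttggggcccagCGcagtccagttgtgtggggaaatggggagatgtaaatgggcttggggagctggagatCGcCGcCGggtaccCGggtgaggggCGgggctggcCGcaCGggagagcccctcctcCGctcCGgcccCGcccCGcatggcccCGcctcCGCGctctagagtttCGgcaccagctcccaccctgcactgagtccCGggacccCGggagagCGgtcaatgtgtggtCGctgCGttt
FLT1: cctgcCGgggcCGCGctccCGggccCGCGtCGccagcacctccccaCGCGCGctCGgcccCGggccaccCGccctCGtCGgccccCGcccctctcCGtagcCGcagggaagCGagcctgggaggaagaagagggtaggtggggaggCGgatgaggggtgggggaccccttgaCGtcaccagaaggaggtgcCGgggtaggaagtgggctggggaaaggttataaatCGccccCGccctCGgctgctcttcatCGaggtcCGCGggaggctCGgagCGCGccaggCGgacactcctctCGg
RNASE1 upper start: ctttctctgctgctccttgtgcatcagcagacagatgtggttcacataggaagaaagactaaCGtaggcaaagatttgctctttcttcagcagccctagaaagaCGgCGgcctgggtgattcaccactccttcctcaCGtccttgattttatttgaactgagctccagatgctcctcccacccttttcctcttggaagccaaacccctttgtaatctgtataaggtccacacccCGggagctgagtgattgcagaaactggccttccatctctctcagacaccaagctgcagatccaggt
RNASE1 lower start: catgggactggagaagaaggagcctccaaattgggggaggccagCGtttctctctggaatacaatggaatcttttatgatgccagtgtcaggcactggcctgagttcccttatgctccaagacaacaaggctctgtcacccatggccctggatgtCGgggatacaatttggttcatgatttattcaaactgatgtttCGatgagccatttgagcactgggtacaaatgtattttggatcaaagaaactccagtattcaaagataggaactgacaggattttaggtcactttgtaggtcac

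The KDR window held 22 CpG pairs and the FLT1 window 33, against 5 and 3 in the RNASE1 windows and a median of 14 over 35114 RefSeq windows of the same length. Of all windows 62.3% held fewer than that of KDR and 82.8% fewer than that of FLT1. For the upper and lower RNASE1 windows it was 29.6% and 18.2%. Of the 4 ERG windows, the one at the highest coordinate held 53, although ERG had at most 11 estimated reads in a library. The TIE1 window held 1, and the 2 TEK windows 5 and 3. The letters AGGAA, a core of ETS-factor sites, were searched on both strands and occurred in 63.1% of all windows. They were found 2 times in FLT1, 3 times and 1 time in the upper and lower RNASE1 windows and not in KDR. The core of GATA-factor sites, AGATAA, occurred in 10.3% of all windows but not in those of KDR, FLT1 and RNASE1. The same held for a core of forkhead sites, TAAACA, which occurred in 12.3% of all windows. ATTGT, a core of SOX sites found in 27.4% of windows, occurred 2 times at the lower RNASE1 start and in none of the other 3 windows. A match is a string of letters and not a measured binding site.

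The secreted members were both lower in KD. VWF (ENSG00000110799.13, GRCh38 chromosome 12, 5948874 to 6124770, minus strand) had 14.3, 12.4 and 10.8 TPM in KD libraries, against 33.9, 38.3 and 29.4 TPM in DE libraries. The highest KD library lay well below the lowest DE library. Its mean was 12.5 ± 1.73 TPM in KD and 33.8 ± 4.44 TPM in DE (SD, n = 3 each), so that KD held 0.370 of the DE level, the log2 change being -1.37 (95% interval -1.70 to -1.03) on the scale of TPM plus 1. The 95% intervals of VWF, RNASE1, KDR and FLT1 describe spread between libraries. They are no test, since these genes were chosen by this same difference. The VWF value was carried by 836, 842 and 908 estimated reads in KD libraries, against 2518, 2552 and 1971 in DE libraries. Its pseudogene VWFP1, which copies part of the VWF gene and could share reads with it, was at 0.0528 TPM or less in KD libraries and at 0.214 TPM or less in DE libraries.

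RNASE1 (ENSG00000129538.13, chromosome 14, 20801228 to 20803278, minus strand) had 8.71, 7.03 and 8.05 TPM in KD libraries, against 24.9, 23.3 and 24.2 TPM in DE libraries. Again no KD library came near a DE library. Its mean was 7.93 ± 0.846 TPM in KD and 24.1 ± 0.802 TPM in DE (SD, n = 3 each), a KD level of 0.329 of that in DE and a log2 change of -1.49 (95% interval -1.76 to -1.23). RNASE1 is a short transcript, and its counts were smaller, 74, 69 and 98 estimated reads in KD libraries against 268, 225 and 235 in DE libraries. The ratio of VWF to RNASE1 TPM was 1.64, 1.77 and 1.34 in KD libraries, against 1.36, 1.64 and 1.22 in DE libraries. The ranges of this ratio overlapped between the groups.

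The VEGF receptors were both higher in KD. KDR (ENSG00000128052.9, chromosome 4, 55078259 to 55125595, minus strand), the main signalling receptor for VEGF-A, had 126, 121 and 119 TPM in KD libraries, against 84.1, 94.1 and 73.5 TPM in DE libraries. The groups did not overlap, and the KD libraries lay closer together than the DE libraries. Its mean was 121.75 ± 3.53 TPM in KD and 83.9 ± 10.3 TPM in DE (SD, n = 3 each), 1.45 times the DE level, with a log2 change of 0.54 (95% interval 0.28 to 0.80).

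FLT1 (ENSG00000102755.11, chromosome 13, 28300344 to 28495145, minus strand), which binds VEGF-A, VEGF-B and placental growth factor and also has a soluble form that traps them, had 28.3, 28.3 and 26.1 TPM in KD libraries, against 16.2, 17.9 and 13.4 TPM in DE libraries. All KD libraries were above all DE libraries. The mean of 27.6 ± 1.25 TPM in KD was 1.74 times that of 15.9 ± 2.27 TPM in DE (SD, n = 3 each), with a log2 change of 0.77 (95% interval 0.47 to 1.06). The table has 1 value per gene, so the soluble and the membrane form could not be told apart. KDR exceeded FLT1 4.44, 4.28 and 4.54 times in KD libraries, against 5.18, 5.24 and 5.46 times in DE libraries. This ratio did not overlap between the groups, FLT1 being higher by the larger factor.

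**Figure D1:**
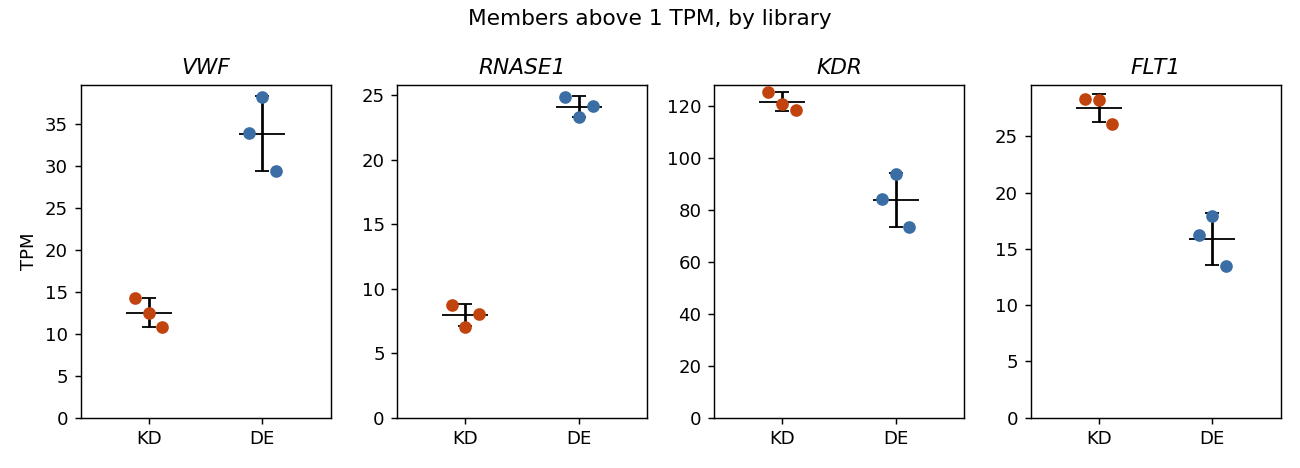
TPM of VWF, RNASE1, KDR and FLT1 in the 3 KD and 3 DE libraries, with a linear axis from 0 in each panel. Points are libraries in replicate order, the horizontal bar is the mean and the whiskers 1 SD. KD libraries lie below all DE libraries for VWF and RNASE1 and above them for KDR and FLT1.

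The changes in opposite directions altered the order of the members. In KD libraries the order of levels was KDR, FLT1, VWF, RNASE1, and in DE libraries it was KDR, VWF, RNASE1, FLT1. No 2 neighbours in either order overlapped within their group, and all 4 exceeded TEK, which was the next highest in both. KDR stood above 94.3% of the 17711 genes tested in KD and 90.9% in DE. FLT1 stood above 70.4% in KD and 57.0% in DE, VWF above 51.9% in KD and 75.1% in DE, and RNASE1 above 42.4% in KD and 67.0% in DE. Within each library KDR was 8.80, 9.73 and 11.0 times VWF in KD, against 2.48, 2.46 and 2.50 times in DE. The DE ratio was almost constant, both transcripts being highest in DE replicate 2 and lowest in DE replicate 3.

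These 4 members were chosen with the KD and DE values known, so their differences are a description and have no p-value here. In the fit across all genes 4 of 4 tested members lay under an adjusted p of 0.05, beside 3.27% of all tested genes. Without a filter on low values 2 of 4 did, VWF and RNASE1. The same count of 2 was left without DE replicate 1 and without each KD library in turn, KDR and FLT1 being lost. Without DE replicate 2 or DE replicate 3 the count was 3, KDR being lost. Of the 4, 2 were higher, beside 1.77% of all tested genes, and 2 lower, beside 1.5%. The groups of all 4 did not overlap, beside 20.8% of all tested genes (10.1% higher and 10.7% lower in KD). Nothing is read from those counts. Their median log2 change was -0.41, beside -0.01 over all tested genes. Since the libraries are bulk RNA, fewer cells with a transcript and less of it per cell cannot be told apart.

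The angiopoietin receptors were near the limit of detection. TEK (ENSG00000120156.20, chromosome 9, 27109141 to 27230175, plus strand) had 0.591, 0.511 and 0.412 TPM in KD libraries, against 0.378, 0.421 and 0.161 TPM in DE libraries. This was 16 estimated reads in each KD library and 13, 13 and 5 in DE libraries, and the TPM ranges overlapped. TIE1 (ENSG00000066056.13, chromosome 1, 43300993 to 43323108, plus strand) had 3, 4 and 5 estimated reads in KD libraries, against 6, 6 and 0 in DE libraries. The count of 0 in DE replicate 3 allows up to 0.0694 TPM (3 reads, counting error only), and the KD values of 0.0795, 0.0917 and 0.0924 TPM lay inside the range of the DE libraries.

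The junction and surface members were equally low. PECAM1 (ENSG00000261371.5, chromosome 17, 64319415 to 64413776, minus strand) had 5, 3 and 4 estimated reads in KD libraries, against 8, 9 and 8 in DE libraries. Its TPM of 0.114, 0.0594 and 0.0638 in KD libraries lay below the 0.144, 0.181 and 0.160 of DE libraries, a separation that rests on 12 reads in KD and 25 in DE. CDH5 (ENSG00000179776.18, chromosome 16, 66366622 to 66404786, plus strand) had 1, 3 and 5 estimated reads in KD libraries, against 3, 6 and 4 in DE libraries. ROBO4 (ENSG00000154133.14, chromosome 11, 124883691 to 124898500, minus strand) had 1, 4 and 1 in KD libraries, against 1, 2 and 2 in DE libraries. Antisense genes share 744 and 448 bases with ROBO4 exons, and whether counting used the strand is not stated, so even these reads may not be from ROBO4. The other members share no exonic base with another annotated gene.

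ERG (ENSG00000157554.18, chromosome 21, 38380027 to 38661780, minus strand) had 11, 4 and 1 estimated reads in KD libraries, against 4, 1 and 5 in DE libraries. The 11 reads of KD replicate 1, 0.257 TPM, were the highest value, and the groups overlapped. In DE the TPM ranges of neighbours in the order TEK, PECAM1, CDH5, TIE1, ERG and ROBO4 overlapped. Every PECAM1 value lay above every value of TIE1, ERG and ROBO4. The lowest PECAM1 value was 0.144 TPM (8 reads) and the highest of TIE1 0.140 TPM (6 reads). Counts this low do not settle the order of PECAM1 and TIE1. In KD the order was TEK, ERG, TIE1, PECAM1, CDH5 and ROBO4, where TEK lay above ERG without overlap and the other neighbours overlapped. None of the 6 low members reached 1 TPM in any library, and none entered the fit.

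**Figure D2:**
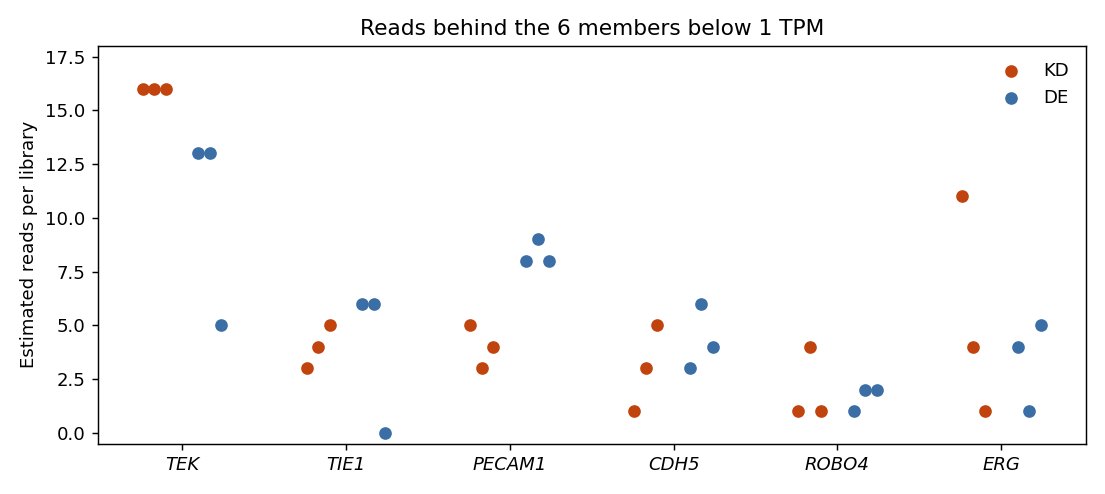
Estimated reads behind TEK, TIE1, PECAM1, CDH5, ROBO4 and ERG in each of the 3 KD and 3 DE libraries, with each point a library and replicates in order from left to right. All values lie between 0 and 16 reads in libraries of 18633706 to 24509809 estimated reads over the 37138 genes with a known exon length.

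Most other markers of endothelium were low as well. Of 10 further markers, 3 reached 1 TPM in at least 3 libraries (CLEC14A, ECSCR and EGFL7), and none was at 0 in all 6. They differed in both directions. CLDN5, a tight junction claudin of vessels, had 0.112 ± 0.0285 TPM in KD and 0.381 ± 0.103 TPM in DE (SD, n = 3 each), from 2, 2 and 4 estimated reads in KD libraries and 8, 11 and 7 in DE libraries. CD34, a surface sialomucin, had 0.0309 ± 0.0107 TPM in KD and 0.0691 ± 0.0321 TPM in DE. This was 1, 2 and 3 estimated reads in KD libraries and 7, 3 and 3 in DE libraries. MMRN2, an extracellular matrix protein of endothelium, ran the other way, at 0.926 ± 0.0737 TPM in KD and 0.492 ± 0.0998 TPM in DE. The groups of CLDN5, CD34 and MMRN2 did not overlap, and these genes did not enter the fit. Among all tested genes the groups of 20.8% did not overlap. ECSCR, a surface protein of endothelial cells, had 1.57 ± 0.223 TPM in KD and 1.31 ± 0.723 TPM in DE (limma adjusted p = 0.857). ESAM, an adhesion molecule, averaged 0.239 TPM in KD and 0.190 TPM in DE, and CD93, a surface receptor, 0.0464 TPM in KD and 0.0154 TPM in DE, with overlapping groups in both. ESAM had 4, 5 and 5 estimated reads in KD libraries and 3, 6 and 2 in DE libraries. CD93 had 3, 1 and 2 in KD libraries and 0, 1 and 1 in DE libraries. EGFL7, a secreted matrix protein of endothelium that stem cells also express, was the highest, at 46.6, 53.9 and 36.5 TPM in KD libraries, against 62.0, 56.0 and 48.9 TPM in DE libraries. The EGFL7 difference was not called (log2 change -0.29, limma adjusted p = 0.494). The summed level of the 10 markers, nearly all of it EGFL7, ran from 40.0 to 57.4 TPM in KD and from 51.5 to 66.2 TPM in DE.

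Of 8 endoderm markers, 5 fell (FOXA2, CXCR4, GATA4, CER1 and GSC) and none rose, beside 1.5% of all tested genes lower. When a single library was left out, the limma adjusted p was up to 0.0970 for CXCR4, 0.0839 for GATA4 and 0.161 for GSC. SOX17 (limma adjusted p = 0.0530), GATA6 (0.0648) and EOMES (0.132) were not called, and with the replicate block their adjusted p was 0.00757, 0.00500 and 0.0368. All 4 pluripotency markers rose (POU5F1, NANOG, SOX2 and DPPA4), beside 1.77% of all tested genes higher. Without a single library the limma adjusted p reached 0.0777 for POU5F1, 0.0893 for NANOG and 0.176 for DPPA4. In a wider list of 10 pluripotency genes 7 rose and 3 were not called, among them LIN28A (limma adjusted p = 0.998) and L1TD1 (0.367). The summed level of 8 endoderm markers ran from 18077 to 19848 TPM in KD and from 24929 to 28539 TPM in DE, and that of 4 pluripotency markers from 1637 to 1900 TPM in KD and from 876 to 1084 TPM in DE. Most of the endoderm sum was CER1, a secreted inhibitor of Nodal and BMP signals, at 17650, 16124 and 16669 TPM in KD libraries, against 23474, 25177 and 22060 TPM in DE libraries. The CER1 call (limma adjusted p = 0.0406) was lost whichever single library was left out (0.0544 to 0.200). FOXA2, a pioneer factor of endoderm, fell (76.0 ± 6.59 TPM in KD, 127 ± 2.21 TPM in DE, SD, n = 3 each, limma adjusted p = 0.0125, up to 0.0795 without 1 library), and SOX2, a stem cell factor, rose (146 ± 8.73 TPM in KD, 73.8 ± 6.71 TPM in DE, limma adjusted p = 0.00587). These shifts ran in the same libraries as those of VWF, RNASE1, KDR and FLT1, and their part in them was not tested.

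**Figure D3:**
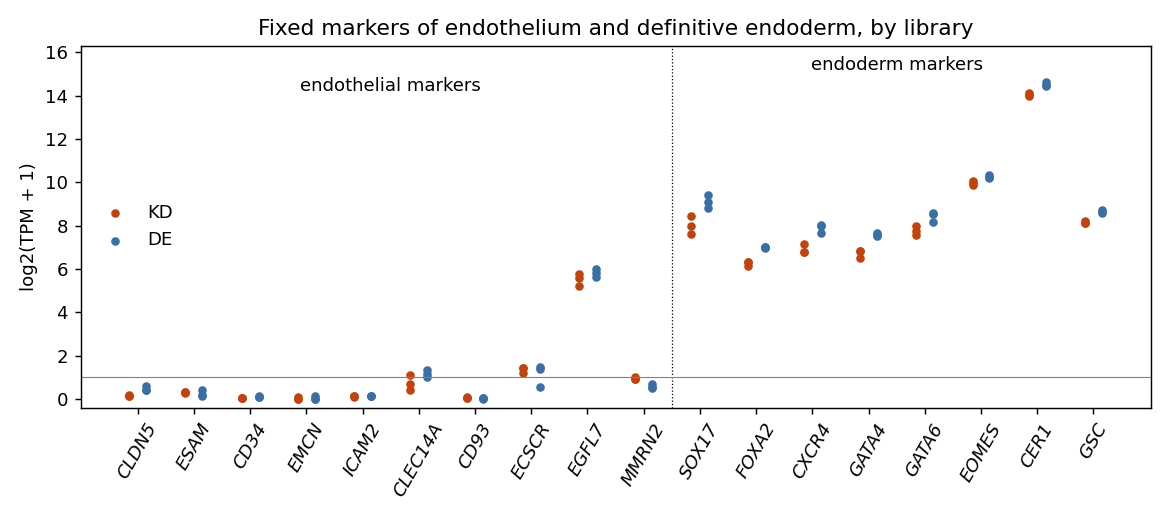
Level as log2(TPM + 1) of 10 endothelial and 8 definitive endoderm markers in each KD and DE library, points being libraries and the grey line 1 TPM. Apart from EGFL7, the endothelial markers lie below 2 TPM, while the endoderm markers lie above 68 TPM.

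The wider endothelial programme was taken from 8 lists without the 10 members, chosen with earlier results of these data known. Of 123 genes with a row, 74 were tested, and 5 rose, 4 fell and 65 were not called, so that 12.2% passed beside 3.27% of all genes tested. With the replicate number as a block 12 rose and 12 fell, 32.4% beside 12.5%. The median log2 change of the 74 was -0.05, beside -0.01 over all genes tested.

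The VEGF list held falls in coreceptors, while KDR and FLT1 were higher. NRP2, a neuropilin that binds VEGF-C and VEGF-A beside the kinase receptors, fell (56.5 ± 1.64 TPM in KD, 86.6 ± 6.15 TPM in DE, SD, n = 3 each, log2 change -0.61, limma adjusted p = 0.0196). NRP1, the neuropilin that pairs with KDR, fell as well (2.004 ± 0.256 TPM in KD, 4.28 ± 0.651 TPM in DE, log2 change -0.81, limma adjusted p = 0.0457). Both calls were lost without any single library except DE replicate 3, with a limma adjusted p of up to 0.127 for NRP2 and 0.199 for NRP1. The ligand VEGFA had 7.80 ± 1.05 TPM in KD and 10.4 ± 0.669 TPM in DE (log2 change -0.38, limma adjusted p = 0.203 or, with the replicate block, 0.0444), and VEGFB, a ligand of FLT1, had 48.7 ± 2.20 TPM in KD and 56.6 ± 2.09 TPM in DE (limma adjusted p = 0.310). In all, 2 of the 6 tested genes of this list fell, beside 1.5% of all tested genes, and 4 were not called. With the replicate block 3 fell and none rose, 50% beside 12.5% of all tested genes called in either direction. The median log2 change of the list was -0.30.

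The ligands of TEK were better expressed than the receptor. ANGPT2, the angiopoietin that acts mostly as an antagonist of TEK, fell (16.5 ± 2.23 TPM in KD, 36.9 ± 2.14 TPM in DE, SD, n = 3 each, log2 change -1.12, limma adjusted p = 0.00685), and its adjusted p was 0.0517 without DE replicate 1. Every KD library of ANGPT2 lay below every DE library. ANGPT1, the agonist, had 3.09 ± 0.245 TPM in KD and 1.43 ± 0.423 TPM in DE and was not called (log2 change 0.76, limma adjusted p = 0.0755 or, with the replicate block, 0.0341). The other 3 genes of the list were not tested, among them SVEP1, at 0.602 ± 0.0966 TPM in KD and 0.832 ± 0.155 TPM in DE.

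In the SLIT and ROBO list 1 of 6 tested genes passed, beside 3.27% of all tested genes. UNC5B, a netrin receptor that also binds ROBO4, rose (45.01 ± 2.68 TPM in KD, 26.4 ± 2.83 TPM in DE, SD, n = 3 each, log2 change 0.75, limma adjusted p = 0.0191, a call lost, at up to 0.119, when DE replicate 1 or either of KD replicates 1 and 2 was left out). ROBO1, the broadly expressed receptor of the family, had 76.9 ± 2.41 TPM in KD and 73.7 ± 8.04 TPM in DE, and its ligand SLIT2 had 14.7 ± 0.658 TPM in KD and 15.3 ± 2.65 TPM in DE. Neither ROBO1 nor SLIT2 passed (limma adjusted p = 0.892 and 0.967), and both overlapped between the groups.

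Of 16 tested endothelial transcription factors 2 rose, none fell and 14 did not pass, so that 12.5% passed beside 3.27% of all tested genes. With the replicate block 2 rose and 3 fell, 31.25% beside 12.5% of all tested genes. HEY2, a Notch target of arterial fate, rose (13.1 ± 2.08 TPM in KD, 5.46 ± 0.930 TPM in DE, SD, n = 3 each, log2 change 1.13, limma adjusted p = 0.0173). GATA2, which acts with ETS factors in endothelium and blood, rose (7.59 ± 0.529 TPM in KD, 3.42 ± 0.675 TPM in DE, log2 change 0.97, limma adjusted p = 0.0209). The HEY2 call was lost without either of DE replicates 1 and 2 or KD replicates 1 and 2, and that of GATA2 without DE replicate 1 or any KD library, the adjusted p reaching 0.0922 for HEY2 and 0.123 for GATA2. SOX17, which serves both endoderm and arterial endothelium, had 265 ± 73.3 TPM in KD and 551 ± 115 TPM in DE (log2 change -1.07) and was not called, the limma adjusted p being 0.0530 or, with the replicate block, 0.00757. ETS2, an ETS factor close to ERG on chromosome 21, had 99.4 ± 2.21 TPM in KD and 112 ± 9.16 TPM in DE (limma adjusted p = 0.514).

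Among surface and junction genes, 12 of 29 were tested, 1 rose, 1 fell and 10 did not pass. The share that passed was 16.7%, beside 3.27% of all tested genes. With the replicate block 2 rose and 1 fell, 25% beside 12.5% of all tested genes. CAV1, the coat protein of caveolae, rose (16.8 ± 0.978 TPM in KD, 8.09 ± 1.95 TPM in DE, SD, n = 3 each, log2 change 0.99, limma adjusted p = 0.0274, up to 0.139 without DE replicate 1 or any KD library). APLNR, the apelin receptor of vessels and mesendoderm, fell (9.08 ± 0.605 TPM in KD, 14.1 ± 0.721 TPM in DE, log2 change -0.58, limma adjusted p = 0.0369), a call lost without any single library except DE replicate 3 (up to 0.180). PODXL, a sialomucin of endothelium and of stem cells, led the list at 186 ± 9.36 TPM in KD and 165 ± 12.7 TPM in DE and did not pass (limma adjusted p = 0.491). JAM3, a junctional adhesion molecule, had 33.5 ± 4.55 TPM in KD and 31.1 ± 5.76 TPM in DE (limma adjusted p = 0.881).

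In the list of secreted and haemostatic proteins, where VWF belongs, 1 of 15 tested genes passed, 6.67% beside 3.27% of all tested genes. PROCR, the endothelial receptor of protein C, rose (7.75 ± 0.705 TPM in KD, 2.19 ± 0.553 TPM in DE, SD, n = 3 each, log2 change 1.47, limma adjusted p = 0.00803, 0.0543 without KD replicate 2). IGFBP4, an IGF-binding protein, had 144 ± 11.5 TPM in KD and 111 ± 15.8 TPM in DE (limma adjusted p = 0.202, with the replicate block 0.0132), and TIMP3, an inhibitor of metalloproteinases that also blocks VEGF binding to KDR, had 84.2 ± 4.89 TPM in KD and 107.9 ± 9.62 TPM in DE (limma adjusted p = 0.130, with the replicate block 0.0376). With that block 5 genes of the list rose and 2 fell, 46.7% of those tested beside 12.5% of all tested genes.

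No gene passed in the other 2 lists without the replicate block. With it, 1 intracellular gene rose and 2 fell, 21.4% of those tested beside 12.5% of all tested genes. No gene of the ribonuclease list passed with the block either. Of 14 tested intracellular endothelial genes, MYCT1 was the highest, at 67.2 ± 17.8 TPM in KD and 95.5 ± 16.1 TPM in DE (SD, n = 3 each, limma adjusted p = 0.280, with the replicate block 0.0117). PDCD10, a component of the complex altered in cerebral cavernous malformation, had 54.03 ± 5.24 TPM in KD and 55.8 ± 5.18 TPM in DE (limma adjusted p = 0.942). Only 3 of 10 genes of the ribonuclease list were tested. RNH1, the inhibitor that binds RNASE1, had 19.3 ± 2.48 TPM in KD and 16.9 ± 3.03 TPM in DE (limma adjusted p = 0.736). ANG, angiogenin, a ribonuclease of the same family, had 2.23 ± 0.484 TPM in KD and 3.69 ± 0.623 TPM in DE (log2 change -0.54, limma adjusted p = 0.196).

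**Figure D4:**
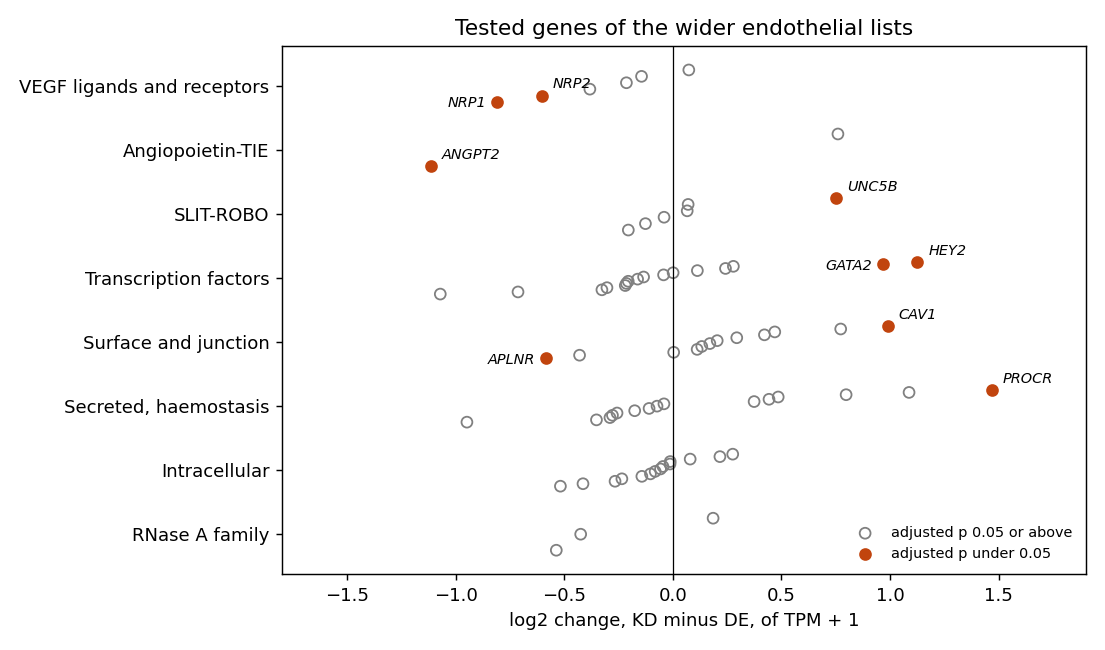
Log2 change (KD minus DE, TPM plus 1) of the 74 tested genes of 8 endothelial lists, each point a gene, filled and named where the limma adjusted p was under 0.05. The 9 named genes are 4 falls (NRP1, NRP2, ANGPT2, APLNR) and 5 rises (UNC5B, HEY2, GATA2, CAV1, PROCR).

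Markers of other cells that use the 10 genes varied in level. Genes of the blood list were mostly too low to be tested, while 8 of 14 lateral mesoderm genes and 6 of 9 mural cell genes were tested. Of 18 tested genes of the blood, lateral mesoderm and mural cell lists, 1 rose, 1 fell and 16 did not pass. This was 11.1%, beside 3.27% of all tested genes and 12.2% of the endothelial lists. With the replicate block it was 16.7%, beside 12.5% of all tested genes. TBX5, a heart and limb factor, rose (16.0 ± 0.560 TPM in KD, 7.38 ± 0.384 TPM in DE, SD, n = 3 each, limma adjusted p = 0.00572, 0.0508 without KD replicate 2). HAND1, of lateral and extraembryonic mesoderm, fell (0.746 ± 0.362 TPM in KD, 4.30 ± 0.552 TPM in DE, limma adjusted p = 0.0123, 0.0717 without DE replicate 1). Of 6 defining blood and megakaryocyte markers, ITGA2B, an integrin of platelets, alone reached 1 TPM, at 7.97 ± 1.64 TPM in KD and 8.67 ± 0.947 TPM in DE (limma adjusted p = 0.865). In the wider blood and megakaryocyte list 4 of 22 genes were tested and none was called. Among them GP1BA had 3.93 ± 0.688 TPM in KD and 3.64 ± 0.334 TPM in DE (limma adjusted p = 0.917). PTPRC, the common leukocyte antigen, was at 0 in all KD libraries and at 0.0558 TPM or less in DE libraries. PDGFRA, of early mesoderm, had 28.9 ± 4.03 TPM in KD and 37.3 ± 7.73 TPM in DE (limma adjusted p = 0.414), and NOTCH3, of mural cells, 95.4 ± 11.5 TPM in KD and 100.1 ± 17.8 TPM in DE (limma adjusted p = 0.945).

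The genes beside the members on the chromosome were examined as well. Of 20 nearest protein-coding neighbours 13 were tested and 1 passed, beside 3.27% of all tested genes, and with the replicate block 3 did, beside 12.5% of all tested genes. CDH11, a cadherin 1240510 bases from CDH5, rose (5.17 ± 0.861 TPM in KD, 2.04 ± 0.433 TPM in DE, SD, n = 3 each, limma adjusted p = 0.0284, up to 0.140 without any single library except DE replicate 3). KIT, the stem cell factor receptor 337544 bases from KDR, had 72.9 ± 9.70 TPM in KD and 121 ± 21.5 TPM in DE (log2 change -0.71, limma adjusted p = 0.0633 or, with the replicate block, 0.00576), the sign opposite to that of KDR. CD9, a tetraspanin 74945 bases from VWF, had 157 ± 23.9 TPM in KD and 103 ± 16.5 TPM in DE (log2 change 0.60, limma adjusted p = 0.108 or, with the replicate block, 0.00218), again opposite to its neighbour VWF. ANO2, 2642 bases from VWF on its other side, had 1.07 ± 0.0375 TPM in KD and 1.33 ± 0.141 TPM in DE. Its sign was that of VWF, and it was not called (log2 change -0.17, limma adjusted p = 0.768). PAN3, 5009 bases from FLT1, had 31.6 ± 4.81 TPM in KD and 30.4 ± 5.03 TPM in DE (limma adjusted p = 0.953). RNASE6, 18761 bases from RNASE1, had 0.709 ± 0.389 TPM in KD and 1.26 ± 0.220 TPM in DE (limma adjusted p = 0.456).

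Across the 6 libraries, patterns were compared by Pearson correlation of log2(TPM + 1) among genes with a mean of at least 5 TPM. With VWF, the highest of 11758 correlations were NTN4 (netrin-4, a basement membrane protein, 0.999), UPK1B (0.999) and ATPAF2 (0.998). With RNASE1 they were LRRN1 (0.998), RBM24 (an RNA-binding protein, 0.997) and PPFIBP2 (0.996). With KDR they were WNT3 (a Wnt ligand of the streak, 0.999), NKX1-2 (a homeobox gene, 0.996) and FLT1 (0.995). NTN4 had 39.7 ± 2.21 TPM in KD and 63.2 ± 3.74 TPM in DE, LRRN1 97.2 ± 6.06 TPM in KD and 184 ± 6.95 TPM in DE, and WNT3 68.1 ± 1.87 TPM in KD and 49.8 ± 5.60 TPM in DE (SD, n = 3 each). With 6 points that fall into 2 groups, any gene that differs between KD and DE correlates highly, and the values are a description.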

How the data were processed

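The deposited values are TPM of 58830 genes for 3 KD and 3 DE libraries, scaled by the authors so that each library sums to 1000000. Tools named by the submitters' processing notes are HISAT2 2.1.0, DESeq2 and featureCounts, with GRCh38 as the build and no roles. No source states the annotation release, strand setting or filters. Reads behind TPM were estimated by multiplying TPM with GENCODE 29 exon lengths (37138 genes) and finding the step of low values (under 50 reads). Of these low values, 88.7% to 89.5% were whole to within 0.02 reads, as were 31 of the 36 values of the 6 low members, CDH5 being off by up to 0.11 reads.

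Genes that reached 1 TPM in 3 or more libraries were tested on log2(TPM + 1) with limma 3.58.1 in R 4.3.3 (eBayes with trend, 2-sided, Benjamini-Hochberg over all 17711 genes, threshold 0.05), so fold changes of low genes are understated. All adjusted p-values come from limma. The procedure was tested on simulated data with noise independent between genes and libraries. Shifts shared by the genes of a library were not simulated. The text names all members, list genes that passed with up to 2 further genes of the highest level per list, nearest neighbours and the most correlated genes. CLDN5, CD34, MMRN2, ECSCR, ESAM, CD93, EGFL7, FOXA2, CER1, SOX2 and PTPRC stand for the marker lists, and VWFP1, PAN3, RNASE6, KIT, CD9 and ANO2 for single readings, chosen after their values were seen. Not all genes the rule takes are printed. Members and lists were chosen with earlier results of these data known.

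Replicate numbers are shared by the titles. After removal of group means, same-numbered KD and DE libraries correlated at 0.108, 0.144 and 0.347, all above the limit of 0.1, so values with the block are given where they change a call. KD replicate 1 and DE replicate 2 correlated at 0.121, so the check does not separate replicates 1 and 2. Promoter windows are RefSeq's on GRCh38.p14. Alternatives were other pseudocounts, filters, scalings, eBayes without trend, the block and leaving out libraries. Python 3.11.15 served for the rest.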

Additional observations from a re-analysis of the deposited data

How the results depend on the processing

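In all alternatives run, VWF and RNASE1 stayed lower and KDR and FLT1 higher in KD, with log2 changes of -1.46 to -1.27, -1.60 to -1.42, 0.45 to 0.62 and 0.66 to 0.86. VWF and RNASE1 stayed called in all of them. The members were chosen by this same contrast, so their calls are a description and give no support. KDR was not called without trend in eBayes, with a pseudocount of 0.1, without a filter or whichever single library was left out, and FLT1 was not called without a filter, without DE replicate 1 or whichever KD library was left out. Counts of calls moved more, and the cause was not tested beyond the fewer libraries or genes in some fits. Of all genes 579 passed, and 239 without a filter, 1743 with median-ratio scaling, 1682 without mitochondrial genes, 2215 with the replicate block, 1212 without replicate 3 of both groups and 87 to 610 without any single library. The 9 calls among 74 endothelial partners became 4 without a filter, 19 with median-ratio scaling, 20 without mitochondrial genes, 24 with the replicate block and 1 to 10 without any single library. The 2 calls among markers of other cell types became 1 with a mean of at least 5 TPM, 4 with median-ratio scaling, 4 without mitochondrial genes and 1 to 2 without any single library. The median log2 change of all tested genes was -0.10 without DE replicate 3 and within 0.06 of 0 elsewhere. The 6 low members rest on at most 16 estimated reads per library, which limits what could be seen of them.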
